A study of Mus musculus with 11 samples.

Results

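Immediate early transcription factor genes were examined in liver sinusoidal endothelial cells (ECs) of germ-free (GF) mice and of conventionally raised (CONV-R) mice. The genes were the 10 rows of the raw count table, out of 29307, that carry the names *Fos*, *Fosb*, *Fosl2*, *Atf3*, *Egr1*, *Egr2*, *Nr4a1*, *Nr4a2*, *Zfp36* and *Ier3*. The first 8 encode transcription factors, whereas *Zfp36* and *Ier3* are early response genes that encode an RNA-binding protein and a survival regulator. *Fosl2*, a FOS family subunit, was the only called gene of the 8 that passed the low-count filter: its fitted level was 1.52-fold higher in ECs of GF mice (95% confidence interval 1.22 to 1.91, n = 5 and 6), and the call was lost when certain single libraries were left out. The orphan nuclear receptor gene *Nr4a1* had a fitted fold of 2.76 (1.41 to 5.41) and missed the threshold. Levels of *Fos*, *Fosb*, *Egr1*, *Egr2*, *Nr4a1* and *Atf3* spread widely between mice of the same group.

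The series comprised 11 RNA-seq libraries, 1 per mouse, 6 CONV-R and 5 GF. All animals were male C57BL/6J mice, 10 to 12 weeks old. GF mice were bred without any microbes in isolators; the CONV-R mice were specific pathogen-free, came from the same colonies and ate the same diet. ECs were dissociated from the liver with enzymes, enriched on magnetic beads for CD146 and then sorted by flow cytometry as CD31+, CD105+ and CD146+ cells, and the RNA was amplified as cDNA before sequencing. The study reported fewer sorted ECs and less RNA from GF livers than from CONV-R livers, and low viability of the sorted cells. Yield therefore differed along with group, and its part in the levels below was not tested. According to the methods of the study, 1 further GF library was removed for few mapped reads. GF replicates are numbered 1, 2, 4, 5 and 6.

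Immediate early genes are transcribed within minutes of a stimulus such as a growth factor, a cytokine, shear stress or cell damage, without new protein synthesis, through factors already present in the cell. Serum response factor with its partners and CREB act on many of their promoters and are activated by MAP kinase or calcium signals. The RNAs are short-lived and some of the proteins feed back on the same response. Enzymatic dissociation and sorting are themselves known to induce such genes, and whether they did so here was not tested. In bulk RNA, fewer cells of a type and less RNA per cell cannot be told apart.

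Total counts ran from 7242717 in GF replicate 5 to 16164588 in GF replicate 1 and did not differ between the groups beyond the spread of the libraries (exact permutation test over samples, two-sided, p = 0.411). The 3 shallowest libraries were GF replicate 5, GF replicate 6 with 7819846 and CONV-R replicate 3 with 7922855 counts. Transcripts of the 3 sorting markers were present in every library: *Pecam1* (CD31) at 412 to 1050 CPM, *Eng* (CD105) at 1563 to 2945 CPM and *Mcam* (CD146) at 199 to 362 CPM. CPM are counts scaled to a common library total with TMM factors, Log2FC is the log2 fold change of GF over CONV-R, and a gene was called at an adjusted p under 0.05, from the quasi-likelihood test of edgeR adjusted by the Benjamini-Hochberg method over all 12905 genes that passed the low-count filter.

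The promoters of 4 of the genes are shown because the results turn on these 2 families: *Fos* and *Fosb* were highest in the same GF library, and *Nr4a1* and *Nr4a2* had Log2FC values of 1.46 and 0.09. Each stretch is the RefSeq sequence (GRCm38.p6) just upstream of a start that RefSeq annotates, written 5′ to 3′ on the strand of the gene. The start used for *Nr4a1* lies inside the gene as GENCODE M21 draws it, since longer transcripts begin further upstream. Capitals mark TGACG, the core of the cyclic AMP response element, the TATA box TATAAA and the EGR site GCGNGGGCG, each on either strand.
*Fos* chr12:85473640-85473889 (+ strand): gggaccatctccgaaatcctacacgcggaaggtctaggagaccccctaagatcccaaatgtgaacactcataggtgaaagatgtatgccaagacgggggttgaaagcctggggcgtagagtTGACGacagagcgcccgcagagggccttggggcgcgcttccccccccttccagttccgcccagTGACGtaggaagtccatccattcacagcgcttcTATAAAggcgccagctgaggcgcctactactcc
*Fosb* chr7:19310052-19310295 (- strand): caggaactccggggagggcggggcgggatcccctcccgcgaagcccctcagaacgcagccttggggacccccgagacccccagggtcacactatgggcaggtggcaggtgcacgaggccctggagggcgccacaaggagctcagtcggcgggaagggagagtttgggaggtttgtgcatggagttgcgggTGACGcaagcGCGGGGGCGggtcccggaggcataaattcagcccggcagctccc
*Nr4a1* chr15:101266596-101266845 (+ strand): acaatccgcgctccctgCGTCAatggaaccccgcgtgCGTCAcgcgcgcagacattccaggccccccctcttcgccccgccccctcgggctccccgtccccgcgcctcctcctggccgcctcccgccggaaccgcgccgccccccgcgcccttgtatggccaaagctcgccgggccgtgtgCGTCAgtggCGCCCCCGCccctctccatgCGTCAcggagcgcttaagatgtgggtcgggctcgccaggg
*Nr4a2* chr2:57124004-57124253 (- strand): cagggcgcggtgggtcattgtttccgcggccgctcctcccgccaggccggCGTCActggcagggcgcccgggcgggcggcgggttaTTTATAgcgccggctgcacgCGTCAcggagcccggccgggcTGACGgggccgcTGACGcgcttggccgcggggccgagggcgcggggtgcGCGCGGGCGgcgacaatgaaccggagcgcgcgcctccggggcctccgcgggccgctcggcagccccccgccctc

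The TGACG core occurred 4 times upstream of *Nr4a1* and 4 times upstream of *Nr4a2*, 2 times upstream of *Fos* and 1 time upstream of *Fosb* and *Atf3*. It also occurred 2 times in each of 3 of the 5 windows of *Egr2*, whose windows overlap in part, while 17.8% of all 32851 mouse windows of 250 bases held it at least once. No window of the genes had the full palindrome TGACGTCA, found in 1.55% of all windows, or the AP-1 site TGANTCA, found in 6.75%. *Fos* and *Nr4a2* had a TATAAA box, as did 12.4% of all windows, and *Fosb*, *Fosl2*, *Nr4a1*, *Nr4a2* and *Zfp36* had an EGR site, as did 4.7%. The CArG box, the site of serum response factor, was found before *Zfp36* and before 4 of the 5 annotated starts of *Egr2*, against 1.47% of all windows. TGACG lies within TGACGTCA, so the counts of these 2 motifs overlap. A match describes letters only, and a motif missing here may lie outside the window. For *Egr1* no window was used here, and for *Fosl2* and *Zfp36* the whole window lies in exons annotated in GENCODE M21.

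Of the 10 genes, *Fos*, *Fosl2*, *Atf3*, *Egr1*, *Nr4a1*, *Nr4a2*, *Zfp36* and *Ier3*, passed the low-count filter and were tested. Of these 8, 1 was called higher in GF and 0 lower in edgeR's test, where 7.48% of all tested genes were called, 4.8% higher and 2.67% lower. At an unadjusted p under 0.05 there were 2 of the 8, *Fosl2* and *Nr4a1*, against 23% of all tested genes, and DESeq2 called the same 2, where it called 9.83% of all genes, 5.98% higher. For 0 of the 8 did the CPM ranges of the groups not overlap, against 5.59% of all tested genes, 3.22% with GF higher. The Log2FC was positive for 5 and negative for 3 of the 8, with a median of 0.35, beside -0.0061 over all tested genes.

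**Figure D1:**
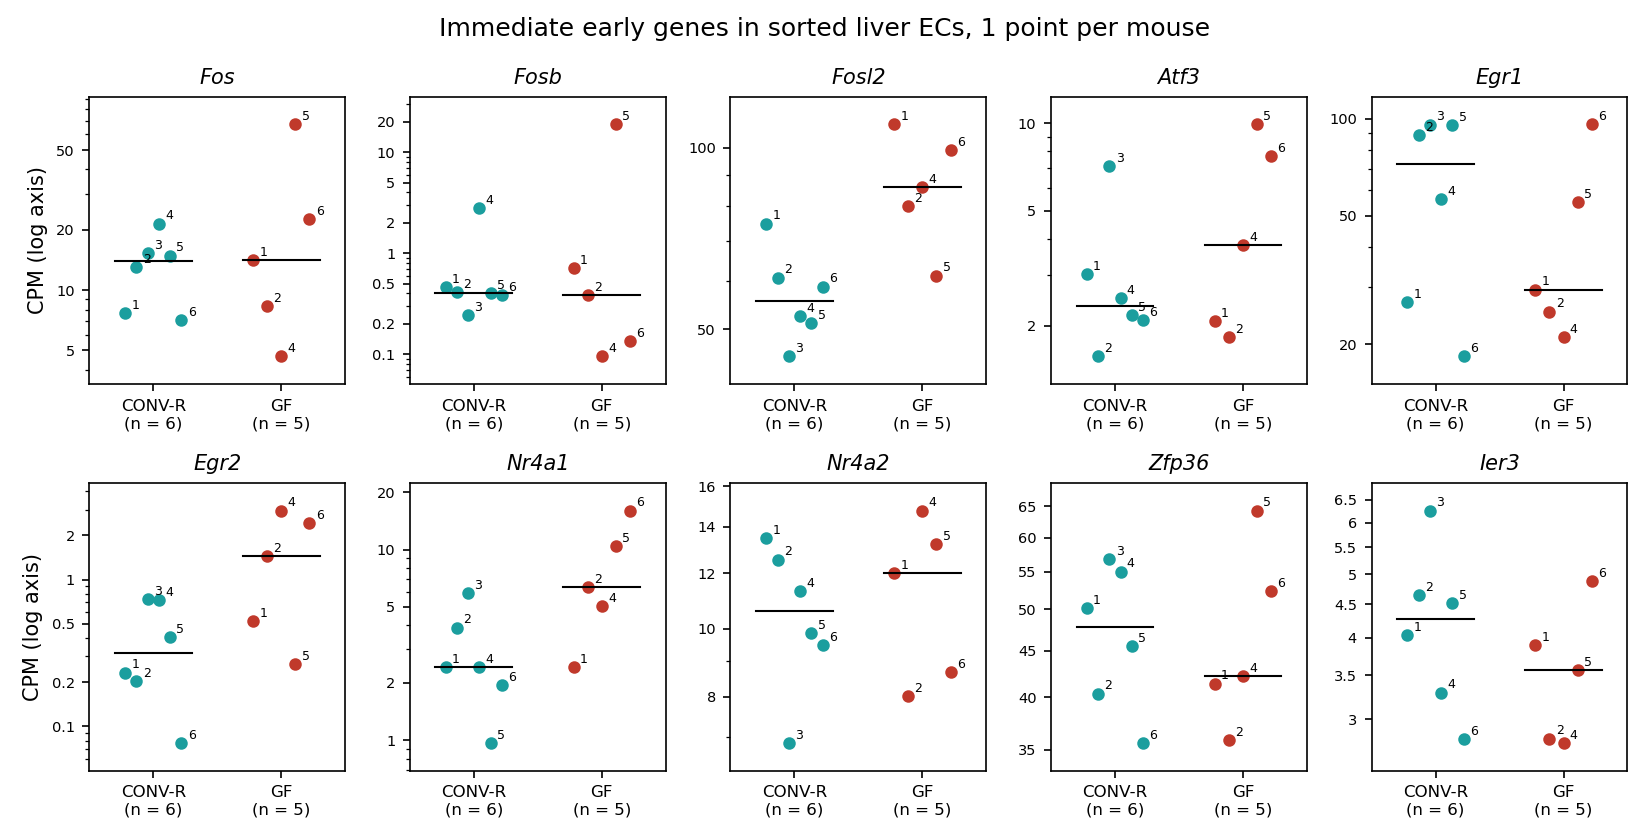
CPM of the 10 immediate early genes in each library, on a log axis of its own per gene, for CONV-R (turquoise) and GF (red); each point is 1 mouse with its replicate number beside it and the line is the group median. The groups overlap for each of the 10 genes, with the GF points of *Fosl2* mostly above and GF replicate 5 far above the rest for *Fos* and *Fosb*.

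FOS proteins are the partners with which JUN proteins form the transcription factor AP-1, and they bind DNA only as dimers. *Fosl2* encodes FRA-2, a FOS family member that is usually more stable than FOS itself and lasts longer after a stimulus. The gene lies at chr5:32135801-32157842 on the plus strand (GRCm38), with up to 4 exons. *Fosl2* ranged from 45.1 to 74.9 CPM in CONV-R libraries, with a median of 55.7. In GF replicates 1, 2, 4, 5 and 6 it stood at 109, 80.0, 86.2, 61.3 and 99.1 CPM. Of the 5 GF libraries, 4 lay above every CONV-R library, and GF replicate 5 lay within the CONV-R range. The means were 57.2 ± 10.3 (SD, n = 6) and 87.2 ± 18.4 (SD, n = 5), with a Log2FC of 0.61 ± 0.15 (SE) and an adjusted p of 0.0236 in edgeR's quasi-likelihood test. The 95% confidence interval ran from a 1.22-fold to a 1.91-fold higher level. An exact permutation test over samples gave an unadjusted p of 0.0108, two-sided. The call was lost without CONV-R replicate 4 or 5 or GF replicate 1 or 6, with adjusted p values of 0.0593, 0.0569, 0.0690 and 0.0666 in edgeR's test, although the Log2FC stayed between 0.51 and 0.71 with each library left out. With limma on the authors' normalized values the Log2FC was 0.51 with an adjusted p of 0.0595.

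*Fos*, the founding member of the family and the classical marker of a fresh stimulus, lies at chr12:85473890-85477273 on the plus strand. Its level was 7.06 to 21.5 CPM in CONV-R libraries, the median being 13.9. The GF libraries held 14.2, 8.31, 4.67, 67.2 and 22.7 CPM in replicates 1, 2, 4, 5 and 6. GF replicate 5 was the highest and GF replicate 4 the lowest of all 11, 14.4-fold apart, so that the GF range enclosed that of CONV-R. The means were 13.2 ± 5.36 (SD, n = 6) and 23.4 ± 25.4 (SD, n = 5). The Log2FC of 0.81 had a 95% interval of -0.24 to 1.85 and an adjusted p of 0.349 in edgeR's test. Without GF replicate 5 the Log2FC was -0.10, and without GF replicates 5 and 6, an alternative chosen after the data were seen, it was -0.53.

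*Fosb*, a paralog best known from activated neurons, lies at chr7:19302696-19310051 on the minus strand and did not pass the filter. It had 59 counts over the 6 CONV-R libraries and 160 over the 5 GF libraries, and 143 of the latter came from GF replicate 5 alone. In CONV-R mice it ranged from 0.246 to 2.81 CPM with a median of 0.407. The GF values were 0.715, 0.386, 0.0952, 18.9 and 0.136 CPM in replicates 1, 2, 4, 5 and 6. Apart from GF replicate 5, every GF library lay under the highest CONV-R library, and 2 lay under the lowest. The exact permutation test over samples, two-sided, gave p = 0.636. Fitted without the filter, the Log2FC of 2.28 had an adjusted p of 0.0630 in edgeR's test, and DESeq2 set the gene aside with no p. *Fosl1* (FRA-1), the remaining FOS paralog, named here after its values were seen, had a Log2FC of 0.48 with a 95% interval of -0.48 to 1.43.

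*Atf3* encodes a stress-induced bZIP factor that can pair with JUN proteins and often represses its targets (chr1:191170296-191218039, minus strand). CONV-R libraries ranged from 1.57 to 7.12 CPM with a median of 2.34, the top value being replicate 3. GF replicates 1, 2, 4, 5 and 6 had 2.08, 1.84, 3.81, 9.92 and 7.73 CPM. GF replicates 5 and 6 were above every CONV-R library and the other 3 were within their range. The Log2FC was 0.72 with a 95% interval of -0.29 to 1.73 and an adjusted p of 0.393 in edgeR's test. With each library left out it stayed positive, from 0.32 without GF replicate 5 to 1.13 without CONV-R replicate 3, and without GF replicates 5 and 6 it was -0.24, with no call in any of these fits.

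EGR proteins are zinc finger factors that bind GC-rich promoters; *Egr1* responds to growth factors and shear stress in endothelium and to injury in many tissues (chr18:34859823-34864984, plus strand). Its level in CONV-R mice ranged from 18.3 to 95.9 CPM with a median of 72.5. In GF replicates 1, 2, 4, 5 and 6 it was 29.5, 25.2, 21.0, 55.0 and 96.0 CPM. Both groups held low and high libraries: CONV-R replicates 1 and 6 were as low as GF replicates 1, 2 and 4, and GF replicate 6 was level with CONV-R replicates 3 and 5, while CONV-R replicate 4 at 56.2 CPM and GF replicate 5 lay between. The means were 63.7 ± 35.1 (SD, n = 6) and 45.4 ± 31.3 (SD, n = 5), with a Log2FC of -0.50, a 95% interval of -1.40 to 0.41 and an adjusted p of 0.530 in edgeR's test. The Log2FC was -0.97 without GF replicate 6, -0.32 without GF replicate 4 and -1.33 without GF replicates 5 and 6, and *Egr1* was called in none of these fits.

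*Egr2*, which is needed for myelination and for the restraint of activated lymphocytes, lies at chr10:67535475-67542188 on the plus strand and was scarce, with 1 to 31 counts per library. CONV-R libraries spanned 0.0776 to 0.737 CPM with a median of 0.318. The GF libraries had 0.520, 1.45, 2.95, 0.264 and 2.44 CPM in replicates 1, 2, 4, 5 and 6. GF replicates 2, 4 and 6 were above every CONV-R library, whereas GF replicates 1 and 5 were within their range, so that *Egr2* was low in the library in which *Fos* and *Fosb* peaked. The exact permutation test over samples gave an unadjusted p of 0.0390, two-sided. It failed the filter, and without the filter its Log2FC of 1.93 had an adjusted p of 0.125 in edgeR's test. DESeq2 gave 1.98 with an adjusted p of 0.0557. *Egr3*, named after its values were seen, had 20 counts over all libraries and was not tested.

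The NR4A genes encode orphan nuclear receptors that act without a known hormone and are set by how much of them is made. *Nr4a1* (NUR77; chr15:101254269-101274795, plus strand) ranged from 0.969 to 5.89 CPM in CONV-R libraries, the median being 2.41. The GF libraries had 2.40, 6.37, 5.05, 10.4 and 16.005 CPM in replicates 1, 2, 4, 5 and 6. GF replicates 2, 5 and 6 lay above every CONV-R library, while GF replicate 1 lay at the CONV-R median. The means were 2.92 ± 1.74 (SD, n = 6) and 8.06 ± 5.31 (SD, n = 5), a Log2FC of 1.46 ± 0.46 (SE) with a 95% interval of 0.49 to 2.43. The unadjusted p of 0.00553 became 0.0626 once adjusted in edgeR's test by the Benjamini-Hochberg method, so the gene was not called. DESeq2 called it with an adjusted p of 0.0186, and edgeR called it without the filter (adjusted p 0.0135), without CONV-R replicate 3 (0.0269) and without GF replicate 1 (0.0258). Without GF replicate 6 the Log2FC was 1.05 with an adjusted p of 0.210 in edgeR's test, and without GF replicates 5 and 6 it was 0.66 with an adjusted p of 0.452. Kupffer cell (liver macrophage) markers were also highest in GF replicate 6, at a summed 955 CPM, and the part this has in the level of *Nr4a1* was not tested.

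*Nr4a2* (NURR1; chr2:57106830-57124003, minus strand) ranged from 6.88 to 13.5 CPM in CONV-R libraries, the median being 10.6. It had 12.02, 8.02, 14.8, 13.2 and 8.68 CPM in GF replicates 1, 2, 4, 5 and 6. The groups overlapped almost completely, with a Log2FC of 0.09, a 95% interval of -0.37 to 0.56 and an adjusted p of 0.845 in edgeR's test. The sign of this value turned in 3 alternatives. *Nr4a3*, the third receptor of the family, was named here after its values were seen: it rose from 1.22 ± 0.563 CPM (SD, n = 6) to 5.503 ± 3.90 CPM (SD, n = 5), with a Log2FC of 2.18, a 95% interval of 1.12 to 3.23 and an adjusted p of 0.0129 in edgeR's test.

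**Figure D2:**
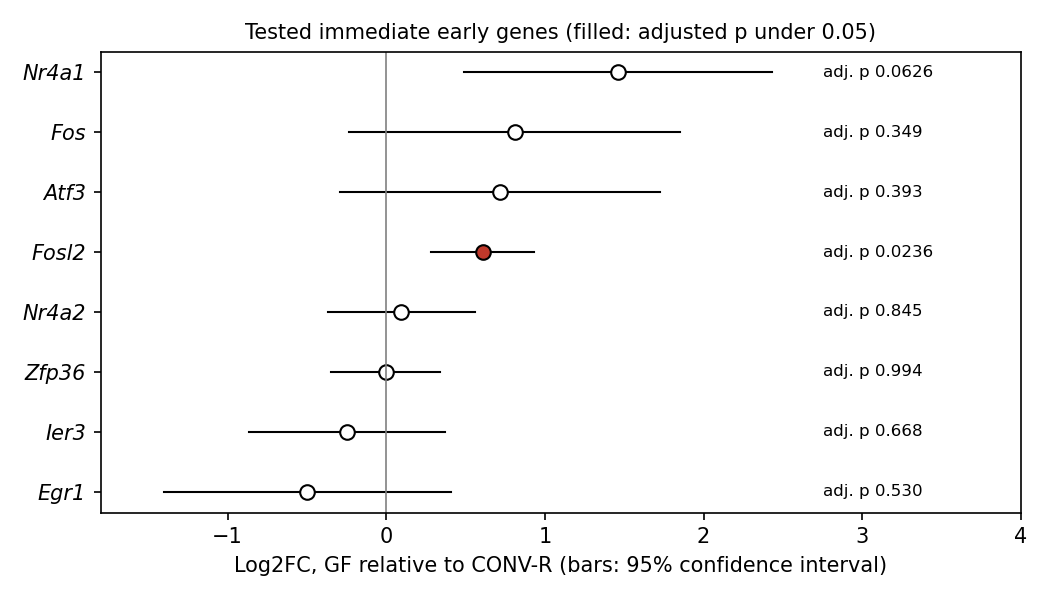
Log2FC of the 8 tested immediate early genes, GF relative to CONV-R, with the 95% confidence interval and the adjusted p of edgeR's quasi-likelihood test; the filled point is the called gene. *Fosl2* has a narrow interval above 0, *Nr4a1* a wide one above 0, and the intervals of the other 6 contain 0.

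*Zfp36* encodes tristetraprolin, which binds AU-rich elements and speeds the decay of cytokine and early response mRNAs, and *Ier3* encodes a small regulator of survival signalling. *Zfp36* (chr7:28376784-28380253, minus strand) ranged from 35.6 to 56.8 CPM in CONV-R libraries, the median being 47.8. GF replicates 1, 2, 4, 5 and 6 had 41.4, 35.8, 42.2, 64.3 and 52.4 CPM. The ranges overlapped, with GF replicate 5 the highest of all 11 libraries. The means were 47.3 ± 8.32 (SD, n = 6) and 47.2 ± 11.2 (SD, n = 5), and the 95% interval of the fold ran from 0.785 to 1.27. An antisense gene, Gm44710, shares 125 exonic bases with *Zfp36*, and since the strand setting of the counting was not given in the sources used here, reads from both cannot be told apart there.

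*Ier3* (chr17:35821684-35822923, plus strand) ranged from 2.79 to 6.26 CPM in CONV-R libraries, the median being 4.28. The GF libraries stood at 3.90, 2.80, 2.76, 3.57 and 4.88 CPM in replicates 1, 2, 4, 5 and 6. GF replicates 2 and 4 were close to the lowest CONV-R library, and the groups overlapped. The Log2FC was -0.25 with a 95% interval of -0.87 to 0.37 and an adjusted p of 0.668 in edgeR's test. The other *Zfp36* paralogs, *Zfp36l1* and *Zfp36l2*, named after their values were seen, had Log2FC values of -0.11 and -0.06 and were not called.

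Levels were compared between genes as CPM per kilobase of exon, which assumes that counts scale with exon length. Only 1 of 1344 protein-coding genes with 1 exon in GENCODE M21 is among the genes analysed, and whether counts of genes with few exons, such as *Zfp36* and *Ier3* with 2 each, are complete was not tested. In CONV-R mice *Egr1* with a mean of 14.2 and *Zfp36* with 13.6 CPM per kb led, and *Egr1* was above *Zfp36* in 3 of 6 libraries. *Fosl2* at 5.91 and *Fos* at 5.62 CPM per kb followed and were likewise split 3 of 6. *Ier3*, *Nr4a2*, *Atf3* and *Nr4a1* came next at 3.76, 2.61, 1.43 and 0.832 CPM per kb, each above its lower neighbour in 5 or 6 of the 6 libraries. *Fosb* at 0.126 and *Egr2* at 0.117 CPM per kb were lowest and did not separate. In GF mice *Zfp36* led at 13.6 CPM per kb, and *Egr1*, *Fos* and *Fosl2* followed at 10.1, 9.94 and 9.01 CPM per kb. The mean of *Fos* stood above that of *Fosl2* there although *Fos* was the higher of both in 1 of 5 libraries only, GF replicate 5. *Nr4a1* stood at 2.30 CPM per kb in GF mice, next to *Atf3* at 2.36 CPM per kb.

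Variation between mice of the same group divided the 8 tested genes. The SD of log2 CPM within groups was 1.07 for *Fos*, 0.97 for *Egr1*, 0.91 for *Nr4a1* and 0.88 for *Atf3*, above that of 93.1% to 97.0% of all tested genes. It was 0.36 for *Ier3* and *Nr4a2*, 0.29 for *Zfp36* and 0.28 for *Fosl2*, between the 39.8th and the 55.8th percentile. The biological coefficient of variation was 55.5% for *Fos* and 48.1% for *Egr1*, where genes of their abundance had 24.3% and 19.1%. The excess was smaller for *Atf3*, 52.7% against 40.0%, and *Nr4a1*, 50.9% against 36.2%. *Zfp36* (19.7% against 19.5%) and *Fosl2* (18.9% against 18.5%) were close to their trend. *Ier3* (30.5% against 39.6%) and *Nr4a2* (25.0% against 27.7%) were below it. The called gene was thus the least variable of the 8. The highest library of the 11 was GF replicate 5 for *Fos*, *Fosb*, *Atf3* and *Zfp36*, GF replicate 6 for *Egr1* and *Nr4a1*, GF replicate 4 for *Egr2* and *Nr4a2*, GF replicate 1 for *Fosl2* and CONV-R replicate 3 for *Ier3*.

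**Figure D3:**
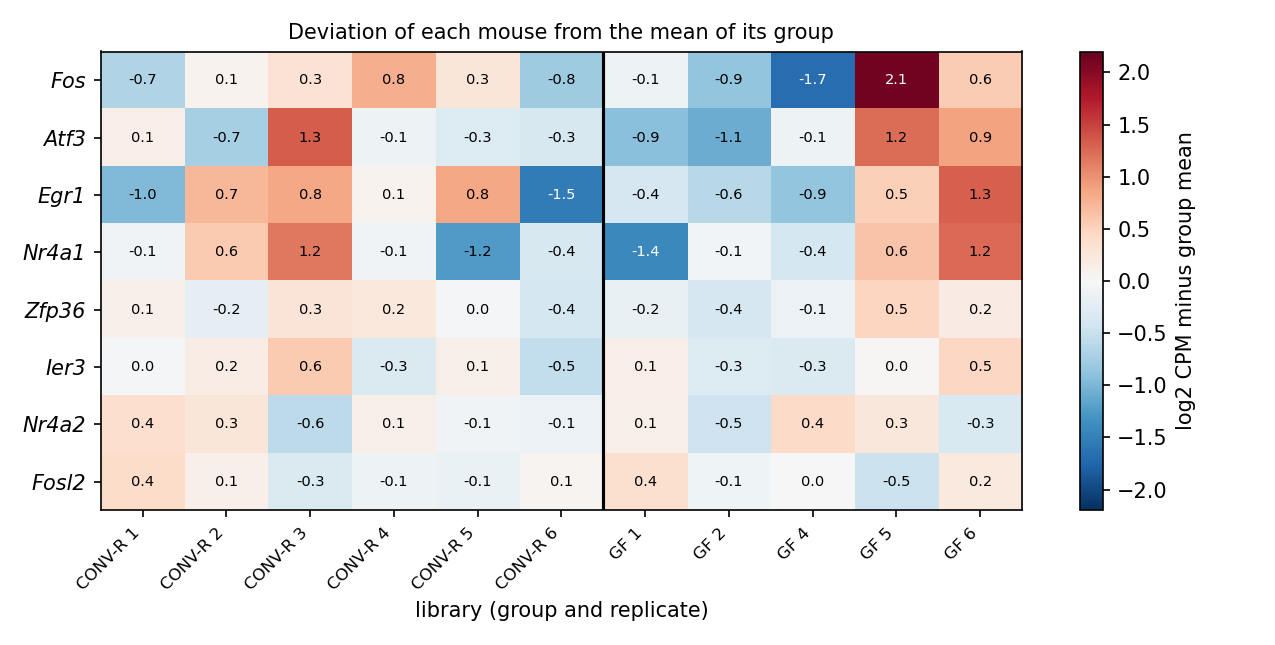
Deviation of log2 CPM from the mean of the group, for the 8 tested genes (rows) in the 11 libraries (columns), with a black line between CONV-R and GF. CONV-R replicate 3 and GF replicates 5 and 6 are mostly red in the upper 6 rows, and the rows of *Nr4a2* and *Fosl2* do not follow them.

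These deviations were shared by some of the genes. Among *Fos*, *Atf3*, *Egr1*, *Nr4a1*, *Zfp36* and *Ier3*, a grouping made after the values were seen, 15 of 15 pairs correlated positively over the 11 libraries, with Pearson's r from 0.37 to 0.85 and a median of 0.52. *Fos* followed *Zfp36* with r = 0.76 and *Egr1* with r = 0.67. *Fosl2* correlated negatively with 6 of these 6, from -0.51 to -0.04, and *Nr4a2* with 5 of 6. Without GF replicates 5 and 6, 13 of 15 pairs stayed positive with a median of 0.43, and after all libraries were drawn down to the same total count 15 of 15 did. At equal depth *Fosl2* correlated negatively with 5 of these 6, the remaining r being 0.04. Over all 28 pairs of the 8 tested genes, 17 were positive with a median of 0.40, which was 0.07 without GF replicates 5 and 6 and 0.29 at equal depth. The 6 genes were grouped after their values were seen, and that choice favours positive pairs among them. This holds also for the values without GF replicates 5 and 6 and at equal depth. The points of each correlation share library, depth and cell preparation, and the values are a description.

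The 3 shallowest libraries had the 3 highest mean standardized deviations over the 8 genes: 0.70 in GF replicate 5, 0.78 in GF replicate 6 and 0.50 in CONV-R replicate 3. At equal depth the values were 0.70, 0.75 and 0.43. The lowest were -0.85 in GF replicate 2 and -0.79 in CONV-R replicate 6. The part of library quality in this order was not tested. Of all other tested genes, the 8 whose deviations were most like this mean were *Ech1* (r = 0.97), *BC003965* (0.93), *Gimap5* (0.93), *Mphosph6* (0.90), *Timm17a* (0.89), *Tmem134* (0.88), *Ttc38* (0.87) and *Cask* (0.87), over 11 libraries. None of these 8 was called between the groups in edgeR's test.

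The wider early response was described from a list of 55 further genes that respond early to stimuli, of which 48 are in the table and 41 were tested. Of these 41, 12 were higher and 3 lower in GF in edgeR's quasi-likelihood test, beside 4.8% higher and 2.67% lower among all tested genes. The median Log2FC was 0.30, and the groups did not overlap for 10 of the 41, beside 5.59% of all tested genes. This list and those below were chosen with earlier results of these data known, so their shares beside all tested genes are a description. From these libraries the study had already reported *Per1*, *Ctgf* (as *Ccn2*) and *Dusp1* as higher in GF. The 3 with the largest rise were *Per1*, a clock gene that glucocorticoids and cyclic AMP induce, *Ctgf*, which encodes a matrix-associated growth factor, and *Arc*, a synaptic early gene. *Per1* rose from 8.62 ± 4.76 (SD, n = 6) to 87.9 ± 23.5 CPM (SD, n = 5), a Log2FC of 3.33 with an adjusted p of 8.69e-06 in edgeR's test. *Ctgf* rose from 28.5 ± 12.5 to 225 ± 124 CPM, a Log2FC of 2.99. *Arc* rose by a Log2FC of 2.62 and its groups overlapped. The 3 that fell were *Socs3*, a feedback inhibitor of cytokine receptors, with a Log2FC of -1.39, the kinase gene *Plk2* with -0.69 and the zinc finger gene *Klf10* with -0.58.

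The other 9 called higher were, besides *Nr4a3*, the AP-1 repressor *Jdp2* (Log2FC 1.61) and the shear-responsive factor genes *Klf2* (0.96) and *Klf4* (1.03), *Klf6* (0.68), *Dusp1* (0.92), which encodes a MAP kinase phosphatase, *Sik1* (1.31), *Btg2* (0.62) and *Csrnp1* (0.77); these 9 were named after their values were seen. Summed over the list, the level was 2585 to 2958 CPM in CONV-R and 3248 to 3860 CPM in GF libraries. The JUN partners of FOS could be followed only in part: *Junb* had 16 counts over all libraries, and *Jun* and *Jund* were not analysed here. The last 2 have a single exon in GENCODE M21, as do *Ier2*, *Ier5*, *Ier5l*, *Rhob* and *Cebpb*, and these 5 are likewise not among the genes analysed.

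Upstream of the early genes, 31 of 32 kinases, cofactors and transcription factors that act on them were tested, and 3 were higher and 1 lower in GF, beside 4.8% and 2.67% of all tested genes. At an unadjusted p under 0.05 there were 4 of the 31, beside 23% of all tested genes. *Mapkapk2*, a kinase downstream of p38 that acts on tristetraprolin, had a Log2FC of 0.95 with an adjusted p of 0.00591 in edgeR's test and no overlap of the groups. *Mkl2*, a cofactor of serum response factor, rose by 0.64 and the ribosomal S6 kinase gene *Rps6ka3* by 0.54 on the log2 scale. *Map2k6*, a kinase that activates p38, fell by 0.63 on the log2 scale. No gene of the list was called lower without CONV-R replicate 2, 4, 5 or 6 or without GF replicate 1 or 6, nor without GF replicates 5 and 6, and the number called higher was 1 without GF replicate 1 or 6, 3 without GF replicate 5 and 2 without any other single library. The median Log2FC of the 31 was 0.10.

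Signs of cell stress and other cell types were measured beside these genes. Of 15 tested heat shock genes, 7 were higher and 0 lower in GF, beside 4.8% and 2.67% of all tested genes, led by *Hspb1* (Log2FC 2.23), *Hsph1* (1.63) and *Ubb* (1.36), with a summed 948 to 1396 CPM in CONV-R and 1253 to 2768 CPM in GF libraries. The sum was highest in GF replicate 4 and, among GF libraries, lowest in replicate 5, in which *Fos* was highest. *Hsp90ab1*, named after its values were seen, made up the largest part of it, with means of 535 CPM in CONV-R and 987 CPM in GF. The inducible heat shock genes *Hspa1a* and *Hspa1b*, each with a single exon, are not among the genes analysed. Of 11 tested Kupffer cell markers, 7 were higher in GF, beside the same 4.8%, led by *Adgre1* (1.97), *Csf1r* (1.85) and *Timd4* (1.58), with a summed 90.3 to 237 CPM in CONV-R and 209 to 955 CPM in GF libraries. The 955 CPM were those of GF replicate 6, and the other GF libraries had 209 to 369.6 CPM. Without GF replicate 6, 3 Kupffer cell markers were called higher, and 4 were without CONV-R replicate 2, 4 or 5 or without GF replicates 5 and 6. Their part in the levels of the early genes was not tested. None of 12 sinusoidal endothelial, 8 hepatocyte, 3 stellate cell and fibroblast and 4 lymphocyte and neutrophil markers tested was called in edgeR's test; at an unadjusted p under 0.05 there were 6, 2, 1 and 2, beside 23% of all tested genes. Of the sinusoidal endothelial markers, 5 were called higher in GF without GF replicate 5, 4 without GF replicates 5 and 6, 2 with the replicate block and 1 without CONV-R replicate 1 or with no filter. Sinusoidal endothelial markers summed to 28152 to 39414 CPM, hepatocyte markers to 24.2 to 68.9 CPM, stellate cell and fibroblast markers to 5.62 to 30.8 CPM, and lymphocyte and neutrophil markers to 18.2 to 40.7 CPM.

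**Figure D4:**
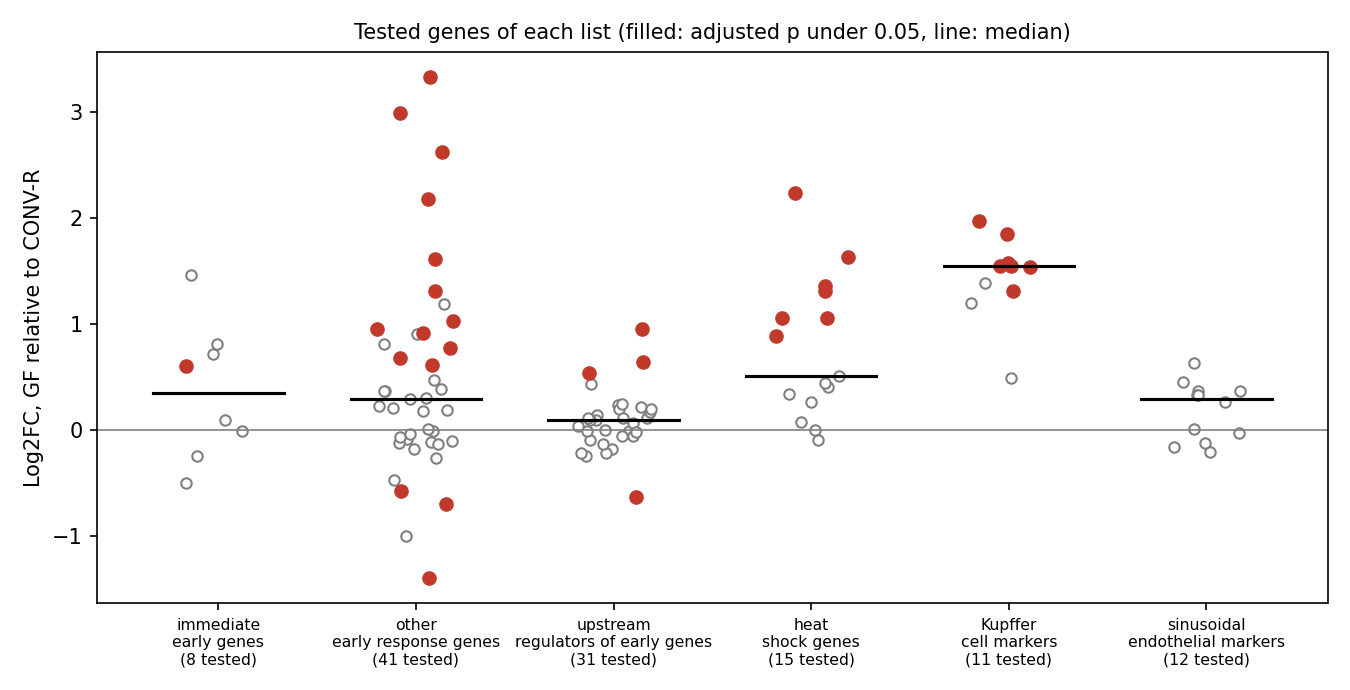
Log2FC, GF relative to CONV-R, of each tested gene in 6 lists, with called genes filled in red and the list median as a line; horizontal scatter within a list carries no meaning. The immediate early genes include 1 called gene, the other early response genes called genes in both directions, and the 11 Kupffer cell markers lie above 0.

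**Figure D5:**
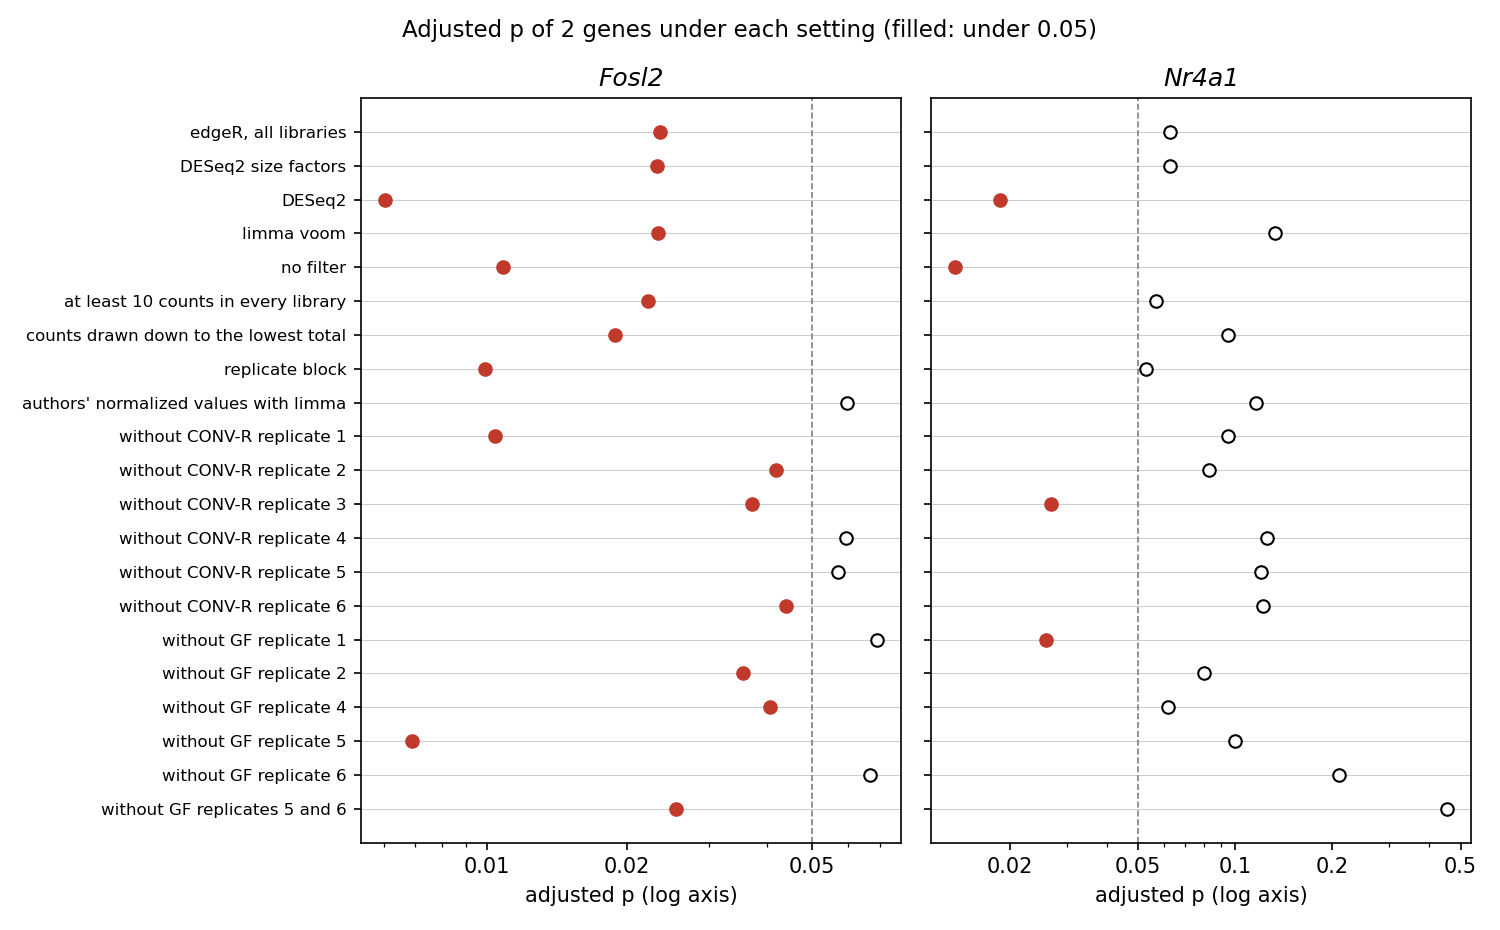
Adjusted p (log axis, 0.05 dashed) of *Fosl2* and *Nr4a1* in the fit to all libraries and under each alternative test, filter, scaling or left-out library, with called results filled. Results for both genes lie on both sides of the threshold.

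Across tests, filters and left-out libraries, *Fosl2* was higher in GF in each fit and its adjusted p ran from 0.00605 in DESeq2 to 0.0690 without GF replicate 1. *Nr4a1* was likewise higher in each fit, with adjusted p values on both sides of the threshold. For the remaining 6 tested genes no fit made a call in either direction.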

How the data were processed

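Liver ECs of 6 CONV-R and 5 GF mice were profiled by RNA-seq. Per the methods of the study and the submitters' processing notes, reads were trimmed with Trim Galore 0.4.4, aligned to GRCm38 (mm10) with STAR 2.5.2b and counted per gene with featureCounts 1.5.2; the annotation release and the strand setting were not given in the sources used here. The authors deposited raw counts of 29307 genes and log2 values normalized with DESeq.

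Raw counts were analysed with edgeR 4.0.16 (R 4.3.3): filterByExpr, TMM scaling, quasi-likelihood fit by group, Benjamini-Hochberg adjustment over 12905 genes, threshold 0.05. CPM use TMM-scaled totals; deviations use log2 CPM with a prior count of 2. A single value was also tested by exact permutation over samples (462 splits, smallest two-sided p 0.00216). Each library is 1 mouse. Mice were housed with cage companions, but which of these mice shared a cage, and whether any shared a litter or day, was not given. At 7242717 to 16164588 counts per library, genes under about 1 CPM rest on few reads, and amplified cDNA reads are not independent molecules.

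The members and gene lists were chosen with earlier results of these data known. All 10 members were named; from each list, the called genes with the 3 largest positive and 3 largest negative Log2FC and any gene that a count of 5 or fewer singles out; also the 8 most alike genes and the 3 sorting markers. Alternatives were DESeq2 1.42.0, its size factors, limma 3.58.1 voom, no filter, at least 10 counts in every library, counts drawn down to 7242717, a replicate block, limma on the deposited log2 values, a prior count of 0.5 for deviations, and each library left out; leaving out GF replicates 5 and 6, and drawn-down counts for the correlations, were added after the data were seen. Promoters came from RefSeq (9 of 10 genes matched) and gene positions from GENCODE M21. The fits were tested on simulated data with the same spread between mice for every gene. That spread was smaller than that of *Fos* or *Egr1*, so the simulation does not cover genes as variable as these.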

Additional observations from a re-analysis of the deposited data

Results flagged for a closer look

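Dixon's test at the 95% level set a library apart from its group in 4 of 20 groups of values (10 genes in 2 groups). For normally distributed values the test flags about 1 in 20 groups by chance. It was run on CPM without a log scale, where high values stand out more, and all 4 flags were high values. *Fos* in GF passed narrowly, with a ratio of 0.712 against a critical 0.71. GF replicate 5 stood apart for *Fos* at 67.2 CPM and for *Fosb* at 18.9 CPM. CONV-R replicate 4 stood apart for *Fosb* at 2.81 CPM, from 35 counts. CONV-R replicate 3 stood apart for *Atf3* at 7.12 CPM.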

How the results depend on the processing

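The number of immediate early genes called, all of them higher in GF, was 1 in the fit to all libraries, 1 without GF replicates 5 and 6, 2 with DESeq2 or with no filter, 0 with limma on the authors' normalized values, and 0 to 2 with each library left out. Over all genes DESeq2 called 1527, and 622 (without GF replicate 6) to 1260 (without GF replicate 5) were called with each library left out; without CONV-R replicate 4 it was 625. The sign of *Fos* turned without GF replicate 5 (-0.10) and without GF replicates 5 and 6 (-0.53), and ran up to 1.07 with a library left out, and that of *Atf3* turned without the latter 2 (-0.24). That of *Nr4a2*, near 0, turned with the replicate block (-0.027), and ran from -0.020 to 0.198 with each library left out. That of *Zfp36*, at -0.0034, turned with drawn-down counts (0.057), the replicate block (0.040) and the normalized values (0.0065), and ran from -0.14 to 0.082 with each library left out. Without GF replicates 5 and 6, 1 other early response gene was lower, 0 upstream regulators were lower, 4 Kupffer cell and 4 sinusoidal markers were higher and 1 stellate cell marker was lower. With the normalized values 1 upstream regulator and 4 Kupffer cell markers were higher. Sinusoidal markers higher numbered 1 with no filter and 2 with the replicate block. A stellate cell marker was lower (1) with DESeq2, voom and no filter, and a lymphocyte or neutrophil marker (1) with DESeq2, voom, the replicate block and the normalized values. With each library left out, the counts were 2 to 4 other early response genes lower, 1 to 3 upstream regulators higher and 0 to 1 lower, 0 to 5 sinusoidal and 3 to 8 Kupffer cell markers higher, and 0 to 1 stellate cell and 0 to 1 lymphocyte or neutrophil markers lower. The median correlation of the deviations over all 28 pairs was 0.07 without GF replicates 5 and 6, 0.29 with drawn-down counts, and 0.31 to 0.46 with each library left out. The cause of these changes was not tested.

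Replicate numbers are shared between the groups, but the 5 same-numbered pairs had correlations of deviations from -0.01 to 0.20 and 1 library correlated best with its own number, so the block has no basis beyond a shared number. Few counts limit the precision for *Junb*, with 16 in all, *Egr2*, with 1 to 31 counts per library, and *Fosb*, with 1 to 11 counts outside CONV-R replicate 4 (35) and GF replicate 5 (143).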
